A study of Mus musculus with 8 samples.

Results

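The proteasome subunit and assembly genes were followed in isolated mouse renal proximal tubules after cisplatin. They were taken as every row of the gene table whose identifier maps to a symbol made of Psm, a letter from a to g and a number, which gave 44 rows of 21874. The choice used names only and no measured value. RNA came from male C57BL/6 mice, in which a single agent, cisplatin at 30 mg/kg into the peritoneum, produced acute kidney injury. The 4 groups were tubules taken at 0, 24, 48 and 72 h, with 2 libraries each, named here by time and by the letter a or b of their column. No dose, vehicle or sham treatment is given for the 0 h group apart from the treatment text shared by all 8 samples, no age is stated, and whether the duplicates of a time came from separate animals is not stated, so p-values speak only of the spread among these samples, which may be technical. The values are FPKM, fragments scaled for gene length and for the mapped fragments of a library.

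The proteasome is the large protease that breaks down proteins tagged with ubiquitin. Its core particle is a barrel of alpha and beta rings with the cutting sites inside, and a regulatory particle on its end, made of a base with a ring of ATPases and a lid, binds, unfolds and feeds in the substrate. Interferon-inducible catalytic subunits can replace the standard ones to form the immunoproteasome, which favours peptides for MHC class I presentation. The proximal tubule reabsorbs filtered solute and protein at high metabolic cost, and cisplatin accumulates in its cells.

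Of the 44 genes, 42 reached 1 FPKM or more in 2 or more libraries and were tested. The other two are the subunits of the testis and the thymus. Psma8, the alpha subunit of the testis, measured between 0.0387 and 0.180 FPKM, and Psmb11, the catalytic subunit of the thymus, between 0 and 0.0330 FPKM. The groups were 12 core subunits, 17 subunits of the regulatory particle, 2 immunoproteasome subunits, 3 activators, 1 inhibitor and 7 assembly factors. Another 4 subunits or activators had no row of their own. Psmb5 and Psmb10 lay inside the rows named 4931414P19Rik and Ctrl and Psme3 inside that named Aoc2, while Psma3 lay only inside 2 rows that span 23 and 67 genes and are listed at 0 in every library. Of the 44 rows, 7 also spanned another gene without a row (Psma1 with Copb1, Psma2 with AW209491, Psma4 with Hykk, Psmd8 with Spred3, Psmd11 with Cdk5r1, Psmg1 with Brwd1, Psmg3 with Tmem184a), and their values cannot be split between the pair. Another 12 reached past their gene, and 27 overlapped at least 1 other row, so with strand use in counting not given in the sources used here, those values may include fragments of a neighbour.

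In the libraries, the 44 genes summed to between 2060 and 2658 FPKM, which was 0.605 to 0.934% of the FPKM outside mitochondrially encoded rows. The injury genes Havcr1, Lcn2 and Cdkn1a rose at each time, which matches the time labels. All 12 proximal tubule marker genes examined were present and fell at each time against 0 h. The summed level of the 11 of them whose rows span no other gene was 18714 and 21237 FPKM at 0 h, 14592 and 12926 by 24 h, 9437 and 10817 by 48 h, and 8040 and 7765 by 72 h. In bulk RNA such as this, fewer cells of a type and less RNA per cell cannot be told apart. Values of the leukocyte markers stand beside the immunoproteasome results.

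Against 0 h, more proteasome genes were called higher than lower at every time, whereas in the deposited scaling more rows of the whole table were lower than higher at 24 and 48 h. Calls are from limma on log2(FPKM + 1) at a Benjamini-Hochberg adjusted p below 0.05 over all 10757 tested rows. At 24 h, 21 of the 42 genes were higher, against 25.8% of all rows, and 6 were lower, against 40% of all rows. At 48 h, 18 were higher and 8 lower, where 28.5% and 42.1% of all rows were called. At 72 h, 20 were higher and 6 lower, where 37.6% and 32.4% of all rows were called. The median log2 difference of the 42 genes was 0.31 at 24 h, 0.10 at 48 h and 0.17 by 72 h, and that of all rows was -0.12, -0.13 and 0.07. At 72 h the higher calls were near or below the share of all rows without library 0 h b, library 72 h a or library 72 h b. Each of these fits leaves 1 library in a group. The median difference of the 42 genes was 0.18 in each, and that of all rows was 0.09, 0.06 and 0.04. All 3 comparisons share the 0 h libraries and are not independent of each other.

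The genes did not move as a block. In the deposited scaling, over the 3 times, 13 were higher throughout (Psma1, Psma6, Psma7, Psmb8, Psmc1, Psmc3, Psmc6, Psmd4, Psmd7, Psmd8, Psmd10, Psmd11, Psme2), 5 were higher at 24 and 48 h but not called at 72 h (Psmb3, Psmc2, Psmd2, Psmd12, Psmd14), and 3 were called higher at 24 h alone (Psma2, Psmb7, Psmc5). Another 6 were called at 72 h alone, all higher, namely Psmb2, Psmb4, Psmb9, Psmd1, Psmd13 and Psmg4. Each of these 6 calls was lost when some single library was left out; for Psmd13 (0.23) these were library 0 h a, library 72 h a and library 72 h b (adjusted p = 0.062, 0.053 and 0.053), and the others are given below. The 48 h call of Psmd12 (0.25) was likewise lost without library 0 h b (0.132), library 48 h a (0.054) or library 48 h b (0.072). In contrast, 5 were lower throughout (Psma4, Psmd3, Psmd9, Psmg2, Psmg3), 7 were called at no time, and Psme1 was lower at 24 and 48 h and higher at 72 h. The remaining pair was Psmd6, lower at 48 and 72 h, and Psmb6, lower at 48 h. A time without a call is not shown to differ from a time with one unless the 2 were compared directly. Neighbouring times are compared below. At 72 h against 24 h, 8 of the 42 genes were higher and 15 lower, where 4053 and 2125 of all 10757 rows were. The lower ones included 5 of 6 alpha ring genes and 4 of 6 ATPases, and 0 of either were higher. That comparison was not run under the other scalings.

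**Figure D1:**
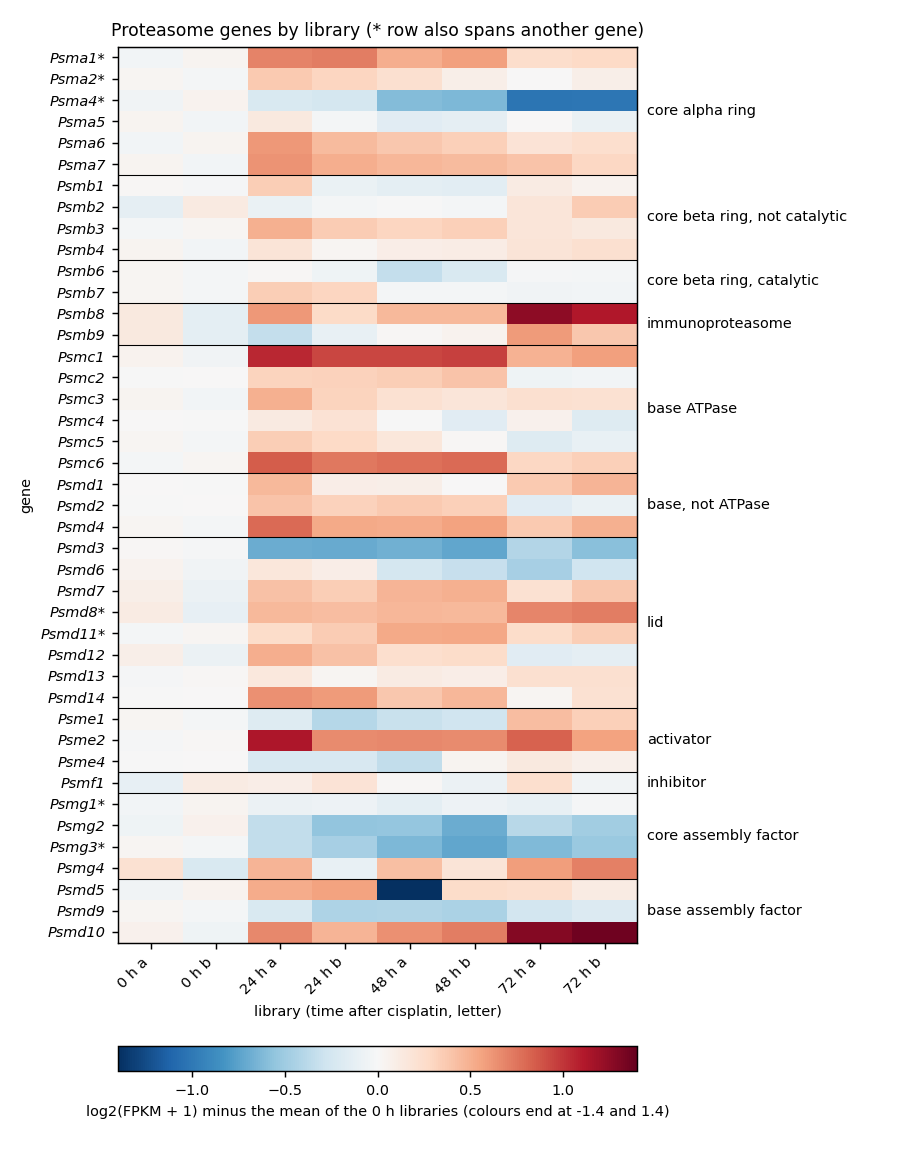
Log2(FPKM + 1) of each of the 42 tested genes minus the mean of the 0 h libraries, by library on the x axis and by gene, grouped by role, on the y axis, with red above and blue below 0. Psmc1, Psmc6 and Psme2 are red in all 6 cisplatin libraries, Psmd3, Psmg2 and Psmg3 are blue in all 6, Psmb8 and Psmd10 are darkest at 72 h, and Psmd5 is dark blue in library 48 h a only.

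How FPKM were scaled between libraries moved the balance of calls. With every library set to the same median, the counts higher and lower were 27 and 4 by 24 h, 22 and 5 by 48 h, and 16 and 9 by 72 h, while 32.1%, 35.6% and 34.7% of all rows were higher and 33.6%, 36.1% and 35.8% lower. After quantile normalisation they were 30 and 3, 30 and 4, and 30 and 5, with 30.1%, 34.2% and 34.7% of all rows higher and 32.9%, 35% and 34.2% lower. As TPM (each value as a share of the library's total) without mitochondrially encoded rows they were 30 and 2, 33 and 3, and 32 and 3, with 33%, 44.5% and 48.4% of all rows higher and 26%, 23.4% and 20.8% lower. In that last scaling the median of all rows was 0.10, 0.30 and 0.37 at the 3 times. Its filter of 1 was applied to the TPM values, so its shares and medians of all rows are over 12813 rows, not 10757. All 21 higher calls at 24 h and all 18 at 48 h held under these 3 scalings, as did 16 of 20 at 72 h. Of the lower calls, only those of Psmd3 and Psmg2 at 24 h, Psmd3 and Psmg3 at 48 h, and Psma4, Psmd3 and Psmg3 at 72 h did so, which is 2 of 6, 2 of 8 and 3 of 6. Genes not called in the deposited scaling gained calls in the others. Under all 3, Psma5, Psmb4, Psmc4, Psmd1, Psmd6 and Psmd13 were higher at 24 h and Psma2, Psmb4, Psmc5 and Psmd13 at 48 h. Under quantile normalisation and TPM but not at the same median, Psmb1 and Psmb6 were higher at 24 h, and Psma5, Psmb1, Psmb2, Psmb7, Psmc4, Psmd1 and Psmg1 at 48 h. At 72 h these were Psma2, Psma5, Psmb1, Psmb3, Psmb6, Psmb7, Psmd2, Psmd14, Psme4 and Psmg1. Called under 1 scaling alone were, at 24 h, Psmg1 (quantile normalisation) and Psmf1 (TPM), both higher. At 48 h these were Psmb9, Psmf1 and Psmg4, all higher as TPM. Psmc5, Psmd2 and Psmd12 were lower at 72 h with every library at the same median.

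**Figure D2:**
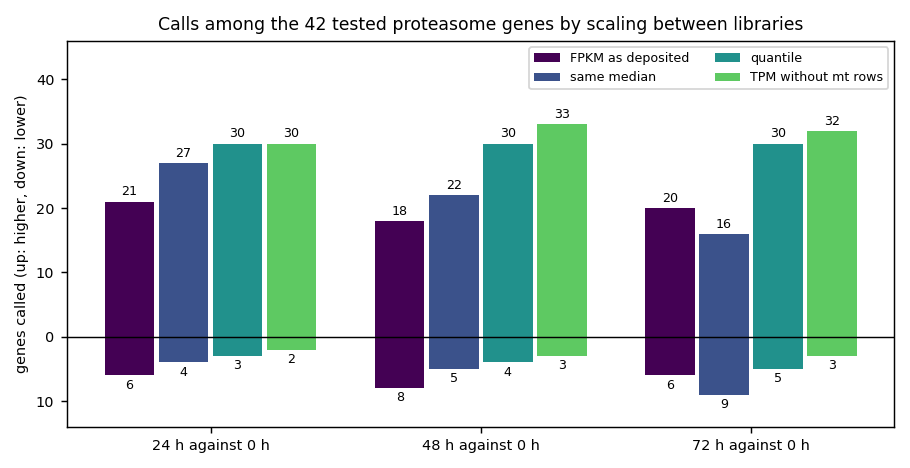
Number of the 42 tested genes called higher (bars up) and lower (bars down) against 0 h at each time, for FPKM as deposited and for 3 other scalings between libraries (mt stands for mitochondrially encoded). At 24 and 48 h every other scaling gave more higher and fewer lower calls than the deposited values, and at 72 h the same-median scaling gave 16 higher and 9 lower.

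Levels differed by part of the machine. At 0 h the median FPKM was 79.5 over the 12 core genes, from 32.1 for Psmb2 to 160 for Psmb4, and 36.9 over the 17 genes of the regulatory particle, from 21.8 for Psmd14 to 103 for Psmd8. It was 12.9 over the 7 assembly factors. The sum of FPKM over the regulatory genes divided by that over the core genes was 0.663 and 0.635 at 0 h, 0.717 and 0.730 by 24 h, 0.782 and 0.772 by 48 h, and 0.730 and 0.751 by 72 h. All cisplatin libraries lay above both 0 h libraries in this quotient, which does not change when a library is scaled by a constant. The sums include the rows of Psma1, Psma2, Psma4, Psmd8 and Psmd11, which also span another gene. The mean of the Psma4 row fell from 143 FPKM at 0 h to 70.3 at 72 h, and that of Psmd8 rose from 103 to 167. Both raise the quotient at 72 h, so its place above 0 h at that time rests on such shared rows. Of the regulatory genes, 12 were higher and 1 lower at 24 h, 11 and 2 by 48 h, and 9 and 2 by 72 h. Of the core genes, 6 were higher and 1 lower, 4 and 2, and 5 and 1. Median log2 differences were 0.36, 0.35 and 0.22 for the regulatory and 0.22, 0.04 and 0.12 for the core genes.

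For 36 of the 44 genes RefSeq gives at least 1 gene start in its GRCm38.p6 table, the assembly of mm10. The 250 bases ahead of each start were searched on both strands for 4 short motifs. Below are the windows of the ATPase genes with the largest rises, of Psmd10, which rose most at 72 h, and of 3 interferon-inducible genes that were higher at 72 h, 5′ to 3′ along the gene. Capitals mark every match to TGANNNNGC (the core of the antioxidant response element), the interferon-stimulated response element, TTCNNNGAA (the interferon gamma activated site) or CCAAT (the CCAAT box).
Psmc1, chr12:100109952-100110201, plus strand: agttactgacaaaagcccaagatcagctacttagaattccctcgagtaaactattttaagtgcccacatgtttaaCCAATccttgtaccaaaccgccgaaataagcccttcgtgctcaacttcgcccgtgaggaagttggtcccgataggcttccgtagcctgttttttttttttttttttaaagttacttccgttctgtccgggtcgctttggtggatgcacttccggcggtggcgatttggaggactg
Psmc6, chr14:45329574-45329823, plus strand: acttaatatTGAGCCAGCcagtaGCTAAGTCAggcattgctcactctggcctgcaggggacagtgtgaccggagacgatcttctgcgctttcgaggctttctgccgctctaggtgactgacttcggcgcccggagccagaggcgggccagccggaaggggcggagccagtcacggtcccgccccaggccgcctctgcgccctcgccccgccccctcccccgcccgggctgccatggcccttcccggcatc
Psmd10, chrX:140956712-140956961, minus strand: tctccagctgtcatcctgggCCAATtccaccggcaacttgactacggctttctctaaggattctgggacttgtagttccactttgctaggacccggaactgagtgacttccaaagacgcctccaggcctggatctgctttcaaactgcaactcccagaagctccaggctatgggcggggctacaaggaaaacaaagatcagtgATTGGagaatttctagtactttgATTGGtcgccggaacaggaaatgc
Psmb8, chr17:34197945-34198194, plus strand: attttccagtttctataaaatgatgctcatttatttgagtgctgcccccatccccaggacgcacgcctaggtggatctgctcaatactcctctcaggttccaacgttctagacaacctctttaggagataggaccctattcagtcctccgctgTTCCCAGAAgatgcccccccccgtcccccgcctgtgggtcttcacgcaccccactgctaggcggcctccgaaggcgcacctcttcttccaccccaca
Psmb9, chr17:34187331-34187580, minus strand: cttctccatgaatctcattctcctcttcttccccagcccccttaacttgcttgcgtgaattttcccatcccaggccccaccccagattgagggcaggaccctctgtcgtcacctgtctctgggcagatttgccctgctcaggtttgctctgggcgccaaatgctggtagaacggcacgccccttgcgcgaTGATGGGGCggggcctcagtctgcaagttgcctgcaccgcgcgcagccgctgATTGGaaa
Psme1, chr14:55578244-55578493, plus strand: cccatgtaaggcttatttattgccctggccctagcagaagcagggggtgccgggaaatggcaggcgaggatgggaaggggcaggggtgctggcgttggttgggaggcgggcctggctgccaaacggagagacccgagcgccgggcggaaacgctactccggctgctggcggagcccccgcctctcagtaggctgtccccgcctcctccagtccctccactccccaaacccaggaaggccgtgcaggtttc
In these windows Psmc6 had TGAGCCAGC and, on the other strand, GCTAAGTCA, while Psmb9 had TGATGGGGC. Psmb8 had TTCCCAGAA, Psmc1, Psmd10 and Psmb9 had CCAAT boxes, and Psme1 had no match. No match overlapped another. The deposited rows of all these genes begin upstream of the RefSeq start. For Psmb8, Psmb9 and Psme1 they begin upstream of the whole window, at 34197721, 34188466 (minus strand) and 55577766, so other starts may be in use. Over the 36 genes, TGANNNNGC was found for 15 (41.7%), against 35.2% of all 32851 RefSeq promoter windows of that length. CCAAT was found for 12 (33.3%) against 33.8%, the interferon-stimulated response element for 3 (8.33%) against 2.98%, and TTCNNNGAA for 2 (5.56%) against 7.02%. The 3 with the interferon-stimulated response element were Psmb3, Psmd4 and Psmd9, and no window printed above had it. Counted by window, as for all promoters, the shares of the 39 windows of these genes were 41.0%, 30.8%, 7.69% and 5.13% in the same order. A gene can have more than 1 window, and a match is a run of letters, not a shown binding site.

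The alpha ring forms the gate of the core particle. Psma1 measured 73.3 and 77.1 FPKM at 0 h, 122 and 124 by 24 h, 107 and 113 by 48 h, and 89.1 and 91.5 by 72 h. Every cisplatin library was above both 0 h libraries, with 24 h highest. Its log2 difference from 0 h was 0.71 ± 0.06 (SE) at 24 h (adjusted p = 1.3e-05), 0.54 at 48 h and 0.26 by 72 h, in a row that also spans Copb1, a coat protein gene of Golgi vesicles. Psma7 measured 73.7 and 69.4 FPKM at 0 h, 111 and 102 by 24 h, 98.7 and 97.4 by 48 h, and 94.4 and 87.5 by 72 h. It too was above 0 h in all 6 libraries, by 0.57 ± 0.07 at 24 h (adjusted p = 0.00011), 0.45 at 48 h and 0.34 by 72 h on the log2 scale. Psma6 was higher at the 3 times by 0.53, 0.36 and 0.21. Its call at 72 h was lost without library 0 h a, library 72 h a or library 72 h b (adjusted p = 0.13, 0.067 and 0.12) and with every library at the same median (0.0527).

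Psma4 went the other way. It measured 139 and 148 FPKM at 0 h, 123 and 120 by 24 h, 93.9 and 92.2 by 48 h, and 70.0 and 70.7 by 72 h, so that no 2 groups overlapped. The log2 differences were -0.23 ± 0.06 (adjusted p = 0.0084), -0.62 (1.9e-05) and -1.01 (6.9e-07). Only the fall at 72 h held under every scaling: after quantile normalisation the differences at 24 and 48 h were 0.12 and 0.03, and without library 0 h b the adjusted p at 24 h was 0.064. The row also spans Hykk, the kinase of hydroxylysine breakdown, so the fall cannot be given to either gene. Psma5 measured 44.6 and 42.5 FPKM at 0 h and 38.9 to 48.1 in the cisplatin libraries, and was not called at any time in the deposited scaling. Under each of the other 3 it was called higher at 24 h (adjusted p = 0.046, 0.0041 and 0.0057). Psma2 (row shared with AW209491) was called at 24 h alone, at 0.33. At 48 h it was called higher under all 3 other scalings (0.29, 0.71 and 0.59) and without library 48 h b (adjusted p = 0.043), and at 72 h after quantile normalisation and as TPM.

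The beta ring holds the cutting sites. Among its 4 subunits without a cutting site in the ring, Psmb3 measured 129 and 134 FPKM at 0 h, 186 and 168 by 24 h, 162 and 166 by 48 h, and 148 and 145 by 72 h. It was higher by 0.43 ± 0.07 at 24 h (adjusted p = 0.00049) and 0.32 by 48 h (0.0023), and at 72 h the difference was 0.16 (0.065). That difference was called without library 24 h a or library 24 h b (adjusted p = 0.025 each time), with only the 0 and 72 h groups (0.033), after quantile normalisation (0.72) and as TPM. All 6 cisplatin libraries lay above 0 h. Psmb4, the most abundant of the 44 genes at 0 h, measured 164 and 156 FPKM at 0 h, 181 and 164 by 24 h, 172 in both libraries at 48 h, and 181 and 188 by 72 h. Its only call was at 72 h (0.20 ± 0.07, adjusted p = 0.025), and that was lost without library 0 h b (0.12), library 72 h a (0.062) or library 72 h b (0.13), and with every library at the same median (0.063). Under all 3 other scalings Psmb4 was called higher at 24 h (0.23, 0.48 and 0.34) and 48 h (0.24, 0.74 and 0.54), and without library 24 h b at 24 h (adjusted p = 0.042). Psmb2 was called at 72 h alone too, from 29.2 and 35.0 FPKM at 0 h to 36.2 and 41.2 by 72 h (0.26 ± 0.10, adjusted p = 0.036). That call was lost without library 0 h a (0.262), library 48 h a (0.053), library 48 h b (0.053) or library 72 h b (0.226), with only the 0 and 72 h groups (0.068), with no filter on low values (0.08) and with every library at the same median (0.093). Psmb1 measured 87.2 to 123 FPKM and was not called, its 24 h libraries standing at 123 and 90.4. Without library 24 h b its difference at 24 h was 0.35 (adjusted p = 0.003), and without either 24 h library that at 48 h was called (-0.14, 0.042).

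Of the standard catalytic subunits, Psmb6, which cuts after acidic residues, measured 127 and 123 FPKM at 0 h, 127 and 120 by 24 h, 99.5 and 108 by 48 h, and 124 and 122 by 72 h. Both 48 h libraries lay below all others. The call at 48 h (-0.27 ± 0.07, adjusted p = 0.0054) was lost with every library at the same median and turned to higher after quantile normalisation (0.39) and as TPM (0.17). Psmb7, which cuts after basic residues, measured 79.7 and 77.2 FPKM at 0 h, 99.6 and 96.8 by 24 h, 77.0 and 76.7 by 48 h, and 75.6 and 76.1 by 72 h. Only its 24 h libraries stood above the rest (0.32 ± 0.06, adjusted p = 0.001). The row that holds Psmb5, which cuts after hydrophobic residues, measured 85.1 and 79.0 FPKM at 0 h, 82.5 and 73.0 by 24 h, 74.6 and 71.7 by 48 h, and 88.1 and 94.1 by 72 h, with no call against 0 h.

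The ATPase ring of the base unfolds substrates. Its member Psmc1 had the largest difference of the 42 genes at 24 h. Psmc1 (row at chromosome 12, 100110142 to 100123380) measured 36.3 and 34.1 FPKM at 0 h, 74.2 and 68.0 by 24 h, 68.4 and 69.2 by 48 h, and 49.6 and 52.9 by 72 h. Every cisplatin library exceeded both 0 h libraries, and the 72 h libraries stood between 0 h and the earlier times. The log2 differences were 0.99 ± 0.07 (adjusted p = 4.3e-06), 0.95 (3.3e-06) and 0.53 (0.00014). Psmc6 (chromosome 14, 45329754 to 45349698) measured 37.0 and 38.7 FPKM at 0 h, 68.9 and 64.0 by 24 h, 65.2 and 66.3 by 48 h, and 46.5 and 48.0 by 72 h, the same order of groups. Its differences were 0.79 ± 0.07 (adjusted p = 9.5e-06), 0.78 (6.6e-06) and 0.31 (0.0022). Both rows keep to their own gene and overlap no other, and both genes were called higher at the 3 times under every alternative run.

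The ring is built from 6 different ATPases in equal number, yet their RNAs rose unequally. Psmc2 was higher by 0.32 at 24 h and 0.37 by 48 h and differed by -0.05 at 72 h. Psmc3 was higher by 0.40, 0.19 and 0.22 at the 3 times. Its call at 48 h was lost without any of 6 libraries in turn (adjusted p from 0.063 to 0.199) and that at 72 h without library 0 h b, library 72 h a or library 72 h b (0.128, 0.094 and 0.083). Psmc5 measured 37.7 and 36.2 FPKM at 0 h, 47.2 and 45.2 by 24 h, 41.2 and 37.4 by 48 h, and 32.4 and 34.2 by 72 h. Its 24 h libraries were the highest and it was called then alone (0.31 ± 0.07, adjusted p = 0.0042). Under all 3 other scalings it was also called higher at 48 h (0.23, 0.49 and 0.52), and with every library at the same median it was lower at 72 h (-0.21, adjusted p = 0.023). Psmc4 measured 36.6 and 36.5 FPKM at 0 h, 39.9 and 42.3 by 24 h, 36.5 and 32.6 by 48 h, and 38.1 and 32.1 by 72 h, with no call, and its 72 h libraries spanned those of 0 h. In all, 5, 4 and 3 of the 6 ATPases were higher at 24, 48 and 72 h and none was lower.

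**Figure D3:**
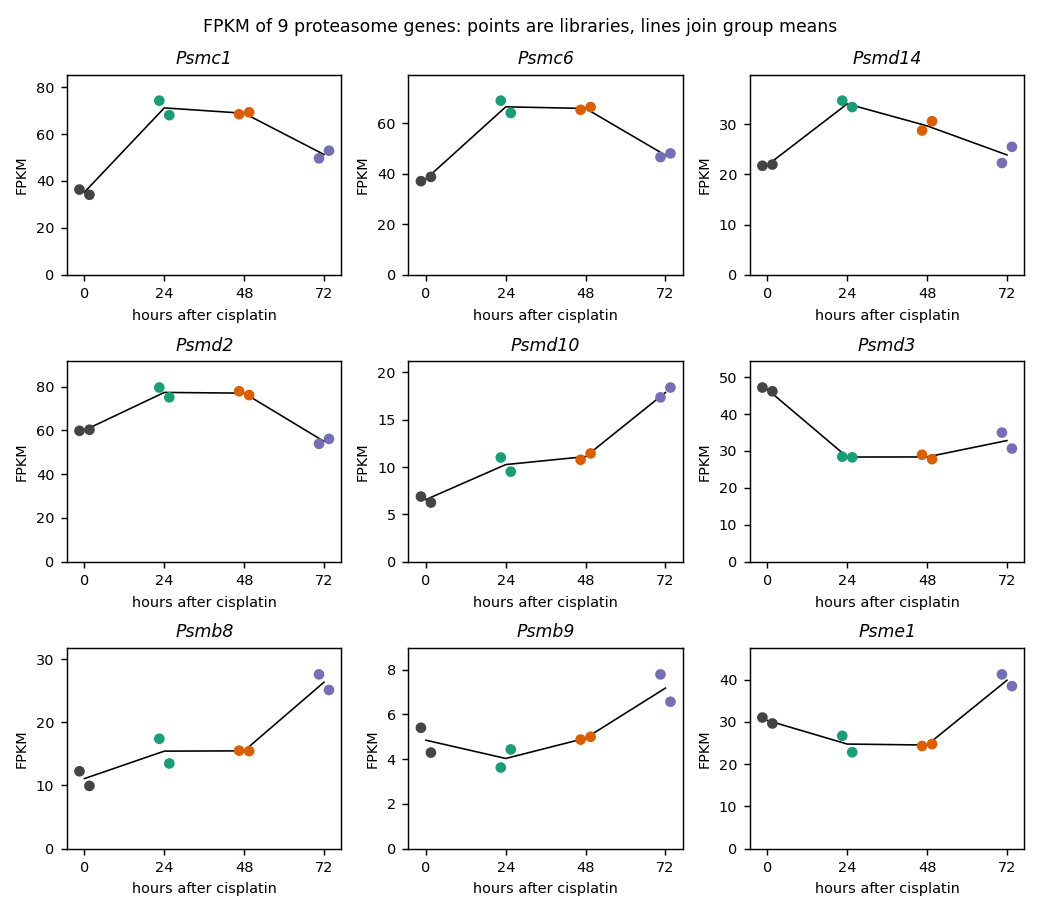
FPKM of 9 genes by time, with a point per library, lines joining the group means, and y axes that start at 0. Psmc1, Psmc6, Psmd14 and Psmd2 are highest at 24 and 48 h, Psmd10, Psmb8 and Psmb9 are highest at 72 h, Psmd3 is highest at 0 h, and Psme1 is lowest at 24 and 48 h and highest at 72 h.

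In the rest of the base, Psmd4, a receptor for ubiquitin chains, measured 57.6 and 55.6 FPKM at 0 h, 98.7 and 82.0 by 24 h, 81.5 and 84.0 by 48 h, and 73.3 and 80.3 by 72 h. It was above 0 h in all 6 libraries, by 0.66 ± 0.09 (adjusted p = 0.00022), 0.54 and 0.43. Psmd2, a large scaffold subunit, measured 59.8 and 60.3 FPKM at 0 h, 79.6 and 75.1 by 24 h, 77.9 and 76.1 by 48 h, and 53.8 and 56.1 by 72 h. It was higher by 0.36 at 24 h and 0.35 by 48 h, and its 72 h libraries lay just below those of 0 h (-0.13, adjusted p = 0.098), a difference that was called higher after quantile normalisation (0.20) and as TPM (0.16) and lower with every library at the same median (-0.19, adjusted p = 0.012). Psmd1, the other large scaffold, measured 27.3 and 26.9 FPKM at 0 h, 37.5 and 28.9 by 24 h, 28.7 and 27.2 by 48 h, and 35.2 and 38.0 by 72 h. It was called at 72 h alone (0.42 ± 0.11, adjusted p = 0.0079). Without library 72 h b that call was lost (0.054), and without library 24 h b the gene was called higher at 24 h (0.46, adjusted p = 0.002).

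The lid carries Psmd14, the protease that cuts ubiquitin chains off the substrate. It measured 21.7 and 22.0 FPKM at 0 h, 34.7 and 33.4 by 24 h, 28.8 and 30.6 by 48 h, and 22.3 and 25.5 by 72 h. Its 24 h libraries were the highest and those of 72 h were back near 0 h, with differences of 0.62 ± 0.08 (adjusted p = 0.00014), 0.42 (0.0011) and 0.12 (0.2). Psmd7, its partner without enzyme activity, was higher by 0.38, 0.49 and 0.29, the last lost without library 0 h b (adjusted p = 0.099) or library 72 h b (0.104). Psmd8 measured 111 and 94.6 FPKM at 0 h, 141 and 138 by 24 h, 142 and 140 by 48 h, and 165 and 169 by 72 h. All 6 cisplatin libraries exceeded 0 h, by 0.44, 0.46 and 0.70 ± 0.08 (adjusted p at 72 h = 3.9e-05), in a row that also spans Spred3, an inhibitor of Ras signalling. Psmd11, in a row with Cdk5r1, was higher by 0.30, 0.54 and 0.30.

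Psmd3, another lid subunit, was the member that fell at every time and under every alternative run. It measured 47.2 and 46.2 FPKM at 0 h, 28.4 and 28.3 by 24 h, 29.0 and 27.8 by 48 h, and 35.0 and 30.7 by 72 h. All 6 cisplatin libraries lay below both 0 h libraries, by -0.70 ± 0.08 (adjusted p = 4.7e-05), -0.70 (3.6e-05) and -0.50 (0.00031). The row (chromosome 11, 98681165 to 98696132) keeps to its gene but overlaps the long row of Atp5g1. Psmd6 measured 41.5 and 38.8 FPKM at 0 h, 44.7 and 42.8 by 24 h, 33.7 and 31.9 by 48 h, and 28.9 and 32.8 by 72 h. It was lower at 48 h (-0.28, adjusted p = 0.011) and 72 h (-0.37, 0.0026). Neither call held after quantile normalisation (0.12 and -0.13) or as TPM (0.15 and -0.09), that at 48 h was also lost with every library at the same median (-0.14), and it was lost without library 0 h a (adjusted p = 0.074) or library 48 h b (0.068). Of the 8 lid genes, 5, 5 and 4 were higher and 1, 2 and 2 lower at the 3 times.

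Between 24 and 48 h few of the genes changed. At 48 h against 24 h, 1 of the 42 was higher, against 11.2% of all rows, and 6 were lower, against 17.2%. Psmd11 was the higher gene (0.24 ± 0.07), and Psma4, Psmb6, Psmb7, Psmc5, Psmd6 and Psmg3 were the lower ones, from -0.23 for Psmc5 to -0.40 for Psmd6. Fewer were called lower without library 24 h a or library 48 h a, and more without library 24 h b. The shares of all rows moved the same way. The median differences of the 42 genes were then -0.03, -0.13 and -0.18, and those of all rows 0.0006, -0.04 and -0.07. The higher call was lost without library 24 h a, library 48 h a or library 48 h b. After quantile normalisation 6 were higher and 1 lower, where 14.7% and 14.5% of all rows were called. As TPM 8 were higher and 1 lower, where 22.3% and 7.32% of all rows were called.

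Between 48 and 72 h, 8 of the 17 regulatory genes fell and 2 rose, while both immunoproteasome genes rose. At 72 h against 48 h, 8 of the 42 genes were higher, against 37.2% of all rows, and 10 were lower, against 11.3%. Of the 10, 8 belong to the regulatory particle, namely Psmc1 (-0.42), Psmc2 (-0.42), Psmc5 (-0.23), Psmc6 (-0.47), Psmd2 (-0.48 ± 0.06, adjusted p = 0.00038), Psmd11 (-0.24), Psmd12 (-0.39) and Psmd14 (-0.30). The other two were Psma1 (-0.28) and Psma4 (-0.40). Higher were Psmb8 (0.73), Psme1 (0.68), Psmd10 (0.64), Psmb9 (0.46), Psmd1 (0.38), Psmb2 (0.28), Psmb6 (0.25) and Psmd8 (0.24). With every library at the same median 18 were lower and 3 higher, where 24% and 20.7% of all rows were. After quantile normalisation 17 were lower and 3 higher, where 22.9% and 22.6% of all rows were. As TPM 17 were lower and 3 higher, where 15.9% and 22.9% of all rows were. Fewer of the 42 were called higher with a 48 h or 72 h library left out, as were fewer of all rows. The median difference was then 0.014 to 0.069 for the 42 genes and 0.16 to 0.18 for all rows.

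The immunoproteasome genes were scarce in these tubules and rose late. Psmb8 measured 12.2 and 9.92 FPKM at 0 h, 17.4 and 13.5 by 24 h, 15.5 and 15.4 by 48 h, and 27.6 and 25.1 by 72 h. Both 72 h libraries stood above all others, and all 6 cisplatin libraries above 0 h. The log2 differences were 0.44 ± 0.13 (adjusted p = 0.014), 0.45 (0.011) and 1.18 (3.6e-05). The call at 24 h was lost without library 0 h b (0.107) or library 24 h a (0.097), and that at 48 h without library 0 h b (0.088). Psmb9 measured 5.40 and 4.29 FPKM at 0 h, 3.63 and 4.44 by 24 h, 4.88 and 5.0 by 48 h, and 7.79 and 6.57 by 72 h. As TPM, but not in the deposited scaling, it was called higher at 48 h (0.45, adjusted p = 0.040). Its 24 h libraries and its 48 h libraries overlapped those of 0 h, and both 72 h libraries were the highest (0.49 ± 0.13, adjusted p = 0.0076). Without library 0 h b or library 72 h a the adjusted p was 0.064 each time. The row that holds Psmb10, the third inducible catalytic subunit, together with Ctrl, a chymotrypsin-like enzyme, and part of Pskh1 measured 13.5 and 11.7 FPKM at 0 h, 14.4 and 12.8 by 24 h, 15.7 and 12.8 by 48 h, and 26.5 and 28.1 by 72 h. It was called at 72 h alone (1.06 ± 0.11, adjusted p = 3.0e-05). The rows of Psmb8 and Psmb9 lie side by side on chromosome 17 and overlap the long row of H2-T22, and that of Psmb9 also overlaps Tap1.

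Set against the standard subunit that each replaces, the inducible subunits made up a larger quotient at 72 h. Psmb8 as a percentage of the row holding Psmb5 was 14.4 and 12.6 at 0 h, 21.1 and 18.4 by 24 h, 20.8 and 21.5 by 48 h, and 31.3 and 26.7 by 72 h. Psmb9 as a percentage of Psmb6 was 4.24 and 3.49, 2.86 and 3.69, 4.90 and 4.62, and 6.28 and 5.36 in the same order. For the row holding Psmb10 as a percentage of Psmb7 the values were 17.0 and 15.2, 14.5 and 13.2, 20.3 and 16.7, and 35.0 and 37.0. In all 3 pairs both 72 h libraries exceeded the other 6. A difference among the 4 groups was tested by an exact permutation of the log2 quotient over all assignments of libraries to groups, 2-sided, where the smallest possible p is 0.00952. The p was 0.019 for Psmb8, 0.0286 for Psmb9 and 0.019 for Psmb10, each 0.0286 when adjusted over the 3 pairs. The mean of that log2 quotient at 72 h exceeded that at 0 h by 1.03, 0.51 and 1.11. With 0.1 FPKM added in place of 1 these differences were 1.10, 0.58 and 1.16, and the unadjusted permutation p was 0.019 for each pair. Leaving out library 24 h a, library 48 h a, library 48 h b or library 72 h a raised the p for Psmb9 to 0.0762, 0.0857, 0.0762 and 0.124, and leaving out library 24 h b raised that for Psmb10 to 0.0667.

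**Figure D4:**
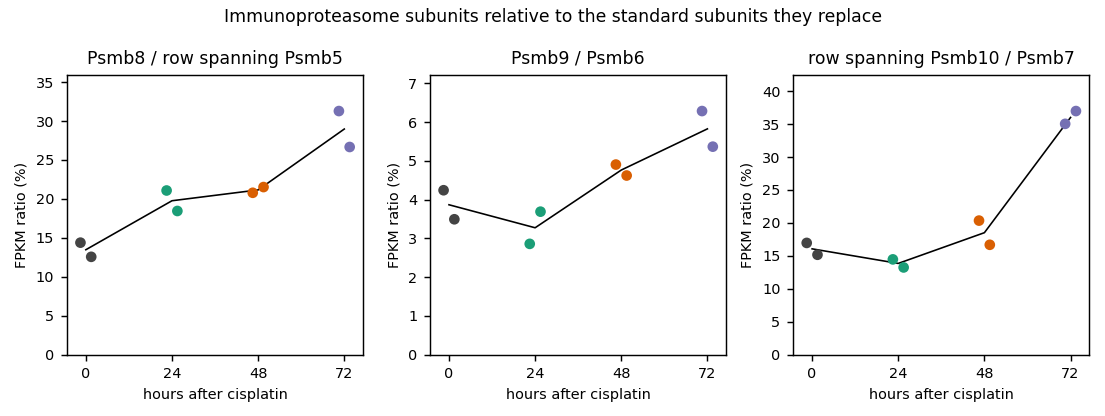
FPKM of each inducible catalytic subunit as a percentage of the standard subunit it replaces, by time, with a point per library, lines joining the group means, and y axes that start at 0. In each panel both 72 h libraries lie above the other 6, at 31.3 and 26.7%, 6.28 and 5.36%, and 35.0 and 37.0%.

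Leukocytes carry the immunoproteasome constitutively, and their markers moved over the same times. Of 15 leukocyte markers tested, of 19 with a row, 4 were higher and 5 lower at 24 h, 7 and 4 by 48 h, and 12 and 3 by 72 h. Of all rows, 25.8%, 28.5% and 37.6% were higher and 40%, 42.1% and 32.4% lower. All 15 were higher at 72 h than at 48 h, against 37.2% of all rows. Among the 15 is Cd79a, whose row also spans many other genes, including the ribosomal protein gene Rps19. It measured 232 and 208 FPKM at 0 h and 530 and 514 by 72 h, and its place in these counts cannot be given to Cd79a. The summed level of the 18 whose rows span no other gene was 288 and 249 FPKM at 0 h, 147 and 138 by 24 h, 161 and 155 by 48 h, and 373 and 378 by 72 h. The pan-leukocyte gene Ptprc measured 2.60 and 3.29 FPKM at 0 h and 7.91 and 5.62 by 72 h, and the phagocyte lysozyme Lyz2 19.5 and 13.8 against 78.9 and 79.5. Cd3e, which defines T cells, stayed between 0.0174 and 0.183 FPKM. The MHC class II genes Cd74, H2-Aa and H2-Ab1 were lower than 0 h at each time, at -0.60, -0.72 and -0.73 at 72 h. Endothelial markers were also higher at 72 h, 8 of 8, against 37.6% of all rows. The part of these cells in the rise of Psmb8, Psmb9 and the row of Psmb10 was not tested.

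The activators bind the end of the core particle in place of the regulatory particle. Psme1 and Psme2, which form the interferon-inducible activator together, did not move together. Psme1 (chromosome 14, 55577766 to 55581743) measured 31.1 and 29.6 FPKM at 0 h, 26.7 and 22.8 by 24 h, 24.3 and 24.8 by 48 h, and 41.3 and 38.5 by 72 h. The 0 h libraries stood above all of 24 and 48 h and below both of 72 h. The log2 differences were -0.29 ± 0.08 (adjusted p = 0.015), -0.30 (0.012) and 0.38 (0.0031). The lower calls were lost under each of the other 3 scalings, where the differences ran from -0.17 to -0.06 at 24 h and from -0.16 to 0.13 at 48 h. They were also lost without library 0 h a (adjusted p = 0.08 and 0.067), that at 24 h without library 24 h b (0.085) and that at 48 h without library 48 h a (0.055), while the higher call at 72 h held in each of these. Psme2 measured 60.6 and 61.7 FPKM at 0 h, 135 and 97.3 by 24 h, 97.9 and 97.5 by 48 h, and 109 and 90.8 by 72 h. All 6 cisplatin libraries exceeded 0 h, by 0.89 ± 0.15 (adjusted p = 0.0012), 0.67 and 0.69, in a row that overlaps Irf9.

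Psme4, the single-chain activator linked to histone breakdown, measured 43.3 and 43.5 FPKM at 0 h, 37.1 in both libraries at 24 h, 34.0 and 44.7 by 48 h, and 47.7 and 45.8 by 72 h, with no call. Its 24 h libraries lay below 0 h (-0.22 ± 0.11, adjusted p = 0.11). That difference was called without library 48 h a or library 48 h b (0.016), and the one at 48 h without library 48 h b (-0.34, 0.006). The row that holds Psme3, the nuclear activator, with Aoc2 measured 18.0 to 21.8 FPKM and was not called. Psmf1, the inhibitor of the core particle, measured 4.69 and 5.70 FPKM at 0 h and 4.84 to 6.26 after cisplatin, with overlapping groups and no call. As TPM it was called higher at 24 h (0.38, adjusted p = 0.0496) and at 48 h (0.38, adjusted p = 0.0457).

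Assembly factors were divided. For the core, Psmg1 and Psmg2 work as a pair that builds the alpha ring, and Psmg3 and Psmg4 as another pair. Psmg1, in a row with Brwd1, measured 35.8 and 37.9 FPKM at 0 h and 33.4 to 36.5 after cisplatin and was not called. Psmg2 measured 12.0 and 13.1 FPKM at 0 h, 9.61 and 8.18 by 24 h, 8.25 and 7.36 by 48 h, and 9.31 and 8.63 by 72 h. All 6 cisplatin libraries lay below 0 h, by -0.45 ± 0.10 (adjusted p = 0.0036), -0.62 (0.00049) and -0.44 (0.0038). As TPM the last 2 differences were -0.24 and -0.19 and were not called. Psmg3 measured 11.5 and 11.0 FPKM at 0 h, 8.67 and 7.86 by 24 h, 6.94 and 6.38 by 48 h, and 6.99 and 7.54 by 72 h. It too was below 0 h throughout, by -0.41 ± 0.09 (adjusted p = 0.0029), -0.68 (0.00011) and -0.57 (0.00033), and as TPM the 24 h call was lost (-0.21). Its row also spans Tmem184a and overlaps Mafk. Psmg4 measured 15.0 and 10.9 FPKM at 0 h, 18.2 and 11.8 by 24 h, 17.4 and 14.7 by 48 h, and 19.7 and 21.5 by 72 h. As TPM, but not in the deposited scaling, it was called higher at 48 h (0.75, adjusted p = 0.014). The call at 72 h (0.65 ± 0.22, adjusted p = 0.037) was lost without library 0 h b (0.167), library 48 h a (0.0504), library 48 h b (0.052), library 72 h a (0.099) or library 72 h b (0.149).

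For the base, Psmd10 (gankyrin, also a binding partner of the ligase that degrades p53) rose most of all 42 genes at 72 h. It measured 6.88 and 6.24 FPKM at 0 h, 11.0 and 9.51 by 24 h, 10.8 and 11.4 by 48 h, and 17.4 and 18.4 by 72 h. Every cisplatin library exceeded 0 h and the 72 h libraries exceeded all others, with differences of 0.57 ± 0.09 (adjusted p = 0.00057), 0.68 (0.00016) and 1.32 (2.0e-06). Psmd9 measured 14.2 and 13.6 FPKM at 0 h and 9.91 to 12.0 after cisplatin, and was called lower at the 3 times (-0.32, -0.44 and -0.23). At 24 h the call was lost without library 0 h a (adjusted p = 0.057) or library 24 h b (0.058), at 72 h without any of 6 libraries in turn (0.066 to 0.189), and as TPM the differences were -0.11, -0.03 and 0.04. Psmd5 measured 18.9 and 20.3 FPKM at 0 h, 28.4 and 29.5 by 24 h, 6.11 and 23.5 by 48 h, and 23.1 and 21.3 by 72 h. The library 48 h a stood far below its duplicate and no time was called. Without that library the gene was higher at 24 h (0.54, adjusted p = 0.001) and at 48 h (0.25, 0.0488), and without library 48 h b it was lower at 48 h (-1.53).

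Genes that work with the proteasome but carry other names are given from a list chosen by function. Of 14 partners and assembly genes, 11 were tested, and 7, 5 and 6 were higher and 2 each time lower. The shares of all rows, which apply to each list below, were 25.8%, 28.5% and 37.6% higher and 40%, 42.1% and 32.4% lower. Zfand2a, a zinc finger protein induced by arsenite that binds the proteasome, measured 4.42 and 6.36 FPKM at 0 h, 35.2 and 33.9 by 24 h, 41.8 and 39.7 by 48 h, and 27.6 and 26.4 by 72 h. Its differences of 2.49, 2.72 and 2.15 were larger than those of any subunit. Zfand5, a zinc finger activator of the proteasome whose row also spans LOC115489044, was higher by 1.77, 1.51 and 1.26. Pomp, the maturation factor of the core, rose from 28.0 and 26.0 FPKM at 0 h to 46.6 and 45.8 by 24 h and was 42.8 and 42.7 by 72 h (0.75, 0.66 and 0.64). The deubiquitinating enzyme Usp14 was higher by 0.76, 0.82 and 0.56, whereas Ube3c, a ligase that extends chains on the proteasome, was lower by -1.04, -0.93 and -0.39.

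Transcription factors and processing enzymes known to act on proteasome genes were mixed. Of 10 tested, of 14 listed, 5, 5 and 6 were higher and 2, 2 and 3 lower, beside the same shares of all rows. Nfe2l1, the factor that raises proteasome genes when the proteasome is inhibited, measured 21.4 FPKM in both 0 h libraries, 22.4 and 21.9 by 24 h, 22.6 and 20.9 by 48 h, and 26.0 and 26.4 by 72 h. It was called at 72 h alone (0.28, adjusted p = 0.0054). Nfe2l2, of the oxidative stress response, was higher by 1.12, 1.04 and 1.10, and Mafk, a small partner of both whose row overlaps that of Psmg3, by 1.89, 1.93 and 1.66. Subunits of the CCAAT-binding factor went opposite ways, with Nfyb higher by 1.58, 1.61 and 0.87 and Nfyc lower by -1.33, -1.41 and -0.69. Vcp, the unfoldase upstream of the proteasome, fell from 149 and 154 FPKM at 0 h to 79.4 and 77.1 by 72 h (-0.94).

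Of 8 interferon response factors tested, 4, 4 and 7 were higher at 24, 48 and 72 h and 3, 0 and 0 lower, and 8 of 8 were higher at 72 h than at 48 h, where 37.2% of all rows were. The interferon gamma receptor genes Ifngr1 and Ifngr2 were higher by 1.4 and 1.6 by 72 h and Irf1 by 0.98. Ifng itself measured at most 0.0583 FPKM and was not tested. Of 11 peptide loading genes of MHC class I listed, 6 had a row and were tested. B2m, H2-K1, H2-D1, Tapbp and Calr had no row of their own. Among the 6 tested, 1, 1 and 2 were higher and 3, 3 and 2 lower. Tap1, a chain of the peptide transporter, measured 4.50 and 4.53 FPKM at 0 h, 7.55 and 8.02 by 24 h, 10.05 and 10.5 by 48 h, and 16.2 and 15.8 by 72 h. It was higher at each time (0.67, 1.03 and 1.62). Tap2, the other chain, was called at 72 h alone (0.80).

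In the list of ubiquitin genes and shuttle factors 10 of 12 were tested, and 3, 2 and 2 were higher and 3, 6 and 4 lower. Rps27a, which encodes ubiquitin fused to a ribosomal protein, was higher by 1.21, 1.14 and 1.24, and the shuttle factor Ubqln2 by 0.70, 0.98 and 0.61. The polyubiquitin gene Ubb measured 585 and 577 FPKM at 0 h, 470 and 476 by 24 h, 476 and 472 by 48 h, and 566 and 586 by 72 h. It was lower at 24 and 48 h (-0.30 and -0.29), and its 72 h libraries spanned those of 0 h.

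Among 2163 circular RNAs counted in the same libraries, which are closed by a splice from a downstream to an upstream site, 1 lay in a proteasome gene. It spans 1067 bases of Psmd2 (chromosome 16, 20656543 to 20657609, mm10). It had 6 and 5 counts at 0 h, 12 and 5 by 24 h, 12 and 13 by 48 h, and 8 and 11 by 72 h, of 13603 to 21024 circular counts a library. The share ran from 2.75 to 7.63 per 10000 and did not differ among the groups by an exact permutation test of F (p = 0.457). With counts this low, only a large difference could be seen.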

How the data were processed

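RNA of 8 libraries (4 times, 2 each) was analysed. Tubular cells were taken from renal cortex into Trizol and ribosomal RNA was removed, per the labels' protocols. Per the file headers, the authors gave linear RNA as FPKM per gene row and circular RNA as whole-number counts per back-splice. The submitters' processing notes list Bowtie 0.12.2, TopHat2, Cufflinks and the build mm10 without saying what each did, and the caller of circular RNA was not given in the sources used here. Another 8 columns of the circular RNA table were not used. FPKM do not give sequencing depth, so counting error is unknown for linear RNA. Circular counts summed to 13603 to 21024 a library.

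Columns were assigned to their time group by name. Rows were compared with RefSeq spans (GRCm38.p6, tolerance 2000 bases); a merged row covers at least 50% of a protein-coding gene without a row of its own. limma 3.58.1 (R 4.3.3; intensity trend, robust) was fitted to log2(FPKM + 1) of all 8 libraries, over rows reaching 1 FPKM or more in 2 or more libraries, with Benjamini-Hochberg adjustment per comparison and a threshold of 0.05. The scale understates changes of low genes. The fit was tested on simulated data. Psmb5 and Psmb10 have no row of their own, so their quotients used the rows that hold them. The comparison of 72 h with 24 h was added to the others. Alternatives were 3 scalings, a pseudocount of 0.1, no filter, rows that keep to their gene, the 2 groups alone, and each library left out.

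Named with values in every library were the catalytic, inducible, activator, inhibitor and core assembly genes, and in each other group the 2 with the largest rise and the 2 with the largest fall in mean over the 3 times, others by how their call differed from their group. From each related list up to 4 were named by smallest p, with a few more chosen after their values were seen (Ube3c, Vcp, Nfe2l1, Ifng, Tap2, Ubb). The genes and lists were chosen with earlier results of these data known. Figures were drawn with matplotlib 3.10.9.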

Additional observations from a re-analysis of the deposited data

Results flagged for a closer look

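Psme1, a subunit of the interferon-inducible activator, had differences from 0 h of opposite direction at the early and the late times, so the times themselves were compared. The 72 h libraries exceeded those of 24 h by 0.67 on the log2 scale (limma adjusted p = 0.00017) and those of 48 h by 0.68 (adjusted p = 0.00033), with both 72 h libraries above all 4 of the earlier times. The lower calls at 24 and 48 h did not hold under any of the 3 other scalings. The reversal of direction against 0 h therefore rests on the scaling. The log2 differences between 72 h and the earlier times do not use the 0 h values, but they too can depend on the scaling between libraries. Whether they hold under the other scalings is not given here, and their adjusted p draw on the spread within all 4 groups.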

How the results depend on the processing

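No paired analysis was possible because the columns carry letters and not the replicate numbers of the labels; a block on the letter was not run, since nothing ties a letter to an animal, batch or day. Called higher and lower against the 21 and 6 (24 h), 18 and 8 (48 h) and 20 and 6 (72 h) of the deposited scaling were 27 and 4, 22 and 5, and 16 and 9 with every library at the same median. They were 30 and 3, 30 and 4, and 30 and 5 after quantile normalisation, and 30 and 2, 33 and 3, and 32 and 3 as TPM without mitochondrially encoded rows. For 48 h against 24 h (1 and 6) they were 6 and 1 after quantile normalisation and 8 and 1 as TPM, and for 72 h against 48 h (8 and 10) they were 3 and 18 at the same median and 3 and 17 under the other two. The shares of all rows under these 3 scalings stand with the results above. With only the 23 genes whose rows keep to them, fewer genes were tested. Counts were then 11 and 3, 10 and 5, and 13 and 3 at the 3 times. Of the 6479 rows in that fit, 24.8%, 28.4% and 38.9% were higher and 40.7%, 41.4% and 31.6% lower. For 48 h against 24 h the counts were 0 and 3, where 12.1% and 15.1% of these rows were called. For 72 h against 48 h they were 7 and 6, where 40% and 9.23% were. With no filter on low values the higher count was 0 for 48 h against 24 h, where 5.7% of all rows were higher. For 72 h against 48 h it was 5, where 20% were. With the 2 groups alone 48 h against 24 h gave 0 and 3, where 7.54% and 12.5% of all rows were called. The cause of these changes was not tested. A pseudocount of 0.1 changed no call against 0 h.

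Leaving out each library in turn, the higher and lower counts ran from 20 to 24 and 4 to 7 at 24 h, 15 to 18 and 6 to 9 at 48 h, 12 to 21 and 5 to 6 at 72 h, 0 to 1 and 3 to 11 for 48 h against 24 h, and 3 to 10 and 7 to 11 for 72 h against 48 h. The log2 quotients at 72 h minus 0 h ran from 0.92 to 1.146 for Psmb8, 0.40 to 0.62 for Psmb9 and 1.03 to 1.18 for Psmb10. The p for Psmb9 passed 0.05 without any of 4 libraries and that for Psmb10 without library 24 h b (log2 quotient 1.11). In all, 53 results of single genes fell short of the threshold with a library left out, 14 passed it and 1 changed direction, Psmd5 at 48 h without library 48 h a (0.25).

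Among the scalings, directions turned under 2. After quantile normalisation the log2 differences were, at 24 h, 0.12 for Psma4, 0.33 for Psmb6 and 0.19 for Psmg1. At 48 h they were 0.028 for Psma4, 0.27 for Psma5, 0.43 for Psmb1, 0.35 for Psmb2, 0.39 for Psmb6, 0.51 for Psmb7, 0.31 for Psmc4, 0.12 for Psmd6, 0.035 for Psme1 and 0.29 for Psmg1. At 72 h they were 0.22 for Psma5, 0.55 for Psmb6, 0.36 for Psmb7, 0.20 for Psmd2 and 0.17 for Psmg1. As TPM without mitochondrially encoded rows they were, at 24 h, 0.0045 for Psma4 and 0.22 for Psmb6. At 48 h they were 0.29 for Psma5, 0.29 for Psmb1, 0.42 for Psmb2, 0.17 for Psmb6, 0.41 for Psmb7, 0.35 for Psmc4, 0.15 for Psmd6, 0.13 for Psme1, 0.38 for Psmf1 and 0.33 for Psmg1. At 72 h they were 0.24 for Psma5, 0.26 for Psmb6, 0.24 for Psmb7, 0.23 for Psmc2, 0.16 for Psmd2, 0.043 for Psmd9 and 0.23 for Psmg1. In the deposited scaling all of these were below 0, and most were not called; the cause was not tested.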
